A study of Mus musculus with 6 samples.

Results

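The 39 genes described here are known targets of interferon signalling, chosen by symbol from a table of 52459 mouse genes. The rule used none of their values, but earlier results of these data were known. All 39 were in the table, and 38 passed a filter on low counts that kept 13453 genes, the exception being Mx1. They were measured by RNA-seq in megakaryocytic-erythroid progenitors (MEPs), marrow cells upstream of both platelets and erythrocytes. There were 3 libraries from wild-type mice (WT) and 3 from Tmprss6-/- mice (KO). Tmprss6 encodes a liver protease that restrains hepcidin, and its loss is used as a model of iron deficiency. Each library pooled cells sorted from 3 mice, gated as Lin- cKit+ Sca- CD150+ CD105- CD41- and negative for the Fc gamma receptors. Neither the age and strain of the mice nor the tissue in which the deletion acts is stated in the labels. No mouse was labelled as given an interferon, so the genes' response to it was not measured.

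Most of the genes stood somewhat lower in KO than in WT, and none passed the test. Of the 38 tested, 32 had a log2 fold change (KO over WT) below 0, against 50.7% of all 13453 genes, and their median was -0.21 against -0.0048 for all genes. In this fit, which does not pair libraries by replicate number, the shift depended on single libraries. Without WT replicate 3 the median was 0.025, with 18 of 38 below 0 against 45.8% of all genes, and without KO replicate 1 it was -0.048. Leaving out 1 library also leaves its partner of the same number unmatched. Between libraries of the same number, the median of KO minus WT in log2 CPM was -0.31, -0.056 and -0.34 for numbers 1, 2 and 3. Of 64 other interferon-induced genes tested, 33 were below 0, with a median of -0.011. In a paired fit of replicates 1 and 3 alone, 44 of 63 of these others were below 0, with a median of -0.16. The set had 34 of 38 below 0 there, with a median of -0.32. In the set, only Oas1a and Xaf1 had WT and KO values that did not overlap. Both were lower in KO (2 of 38, against 1.76% of all genes), and 0 of 38 were higher, against 2.27%. Oas1a, an enzyme that makes the second messenger of an RNA-degrading pathway, was at 37.3 ± 3.08 CPM in WT, against 25.5 ± 4.78 CPM in KO (mean ± SD, n = 3 each). Xaf1, an antagonist of the apoptosis inhibitor XIAP, was at 25.4 ± 1.16 CPM in WT, against 17.9 ± 2.80 CPM in KO (mean ± SD, n = 3 each). Libraries of the same genotype also differed: the median difference of replicate 3 from replicate 1 was 0.88 on the log2 scale in WT and 0.62 in KO. By Xist and Ddx3y the libraries numbered 3 were female and the others male. Between replicates 2 and 1, all male, the median difference was 0.33 in WT and 0.68 in KO.

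Type I interferons bind a receptor whose kinases activate the transcription complex ISGF3, of which STAT2 and IRF9 are subunits. This complex binds the interferon-stimulated response element (ISRE) in the promoters of antiviral genes, while type II interferon acts through gamma-activated sequences (GAS). The induced proteins sense foreign nucleic acid, degrade or sequester viral RNA, modify proteins with ISG15 or ADP-ribose, and load peptides onto MHC class I. In bone marrow, interferons are known to act on stem and progenitor cells, and many of these genes are also transcribed at a low level without added interferon.

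Total counts ran from 13402209 to 22986837 per library, and 3 counts, taken as the floor, equalled 0.138 to 0.220 CPM (counts scaled to a common library size by TMM). Tmprss6 itself gave at most 5 counts in any library of either genotype, so its level does not check the labels. KO replicate 2 stood apart by its level of transcripts that mark other blood cells, although the gate was set against lineage markers and Fc gamma receptors. Its summed level of 18 macrophage and monocyte markers came to 3744 CPM, the other 5 ranging from 108 to 413 CPM, and all 18 were highest there. The corresponding sums were 3428 against 84.9 to 379 CPM for 12 neutrophil precursor markers and 8918 against 54.0 to 834 CPM for 13 eosinophil, basophil and mast cell markers. For 14 dendritic cell markers, a list that holds Bst2, the sum was 597 against 181 to 271 CPM, and for 13 B and plasma cell markers 1162 against 50.5 to 716 CPM. T and NK cell markers (14 genes) summed to 521 against 192 to 459 CPM and globin and late erythroblast markers (10 genes) to 5359 against 180 to 429 CPM. The 14 MEP markers, Kit, Gata1 and Klf1 among them, summed to 7019 CPM in KO 2 and to 8795 to 10259 CPM elsewhere, so the labelled cell type's markers were present in all 6. Both libraries numbered 3 came from female mice by Xist (351 and 175 counts, at most 1 elsewhere), and Ddx3y, a Y-linked gene, had at least 872 counts in the other 4 and at most 1 in these. Sex therefore cannot be told apart from number where number 3 is set against number 1 or 2, whereas the libraries numbered 1 and 2 were all male.

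The promoters show what the genes share in sequence. RefSeq promoter windows (build GRCm38.p6, 250 bases before to 50 after each start) were matched for 30 of the 39 genes. Oas2, Mx1, Mx2, Usp18, Dhx58, Parp9, Parp14, Rtp4 and Zbp1 had none. The ISRE core, read as GAAA, any 2 bases and GAAA again and searched on both strands with overlapping matches allowed, occurred in 14 of the 30 genes (46.7%), against 1079 of 27025 genes in the whole promoter table (3.99%). The GAS pattern TTCNNNGAA, which reads as the same pattern on both strands, occurred in 6 of 30 (20%) against 9.55% of all genes. Bst2 and Oas1a held both. A match describes the letters of the window and is neither a mapped site nor a cause. For each of the 14 genes the match nearest the start is printed 5′ to 3′ on the strand that reads GAAA, with the matched bases in capitals and up to 30 bases in all; for Trim30a it is the window whose match lies before the start.
Isg15 (chr4:156200871-156200900, minus strand): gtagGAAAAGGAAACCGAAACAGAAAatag
Bst2 (chr8:71537580-71537609, minus strand): attccagGAAAATGAAACTGAAAggctgca
Oas1a (chr5:120907523-120907552, minus strand): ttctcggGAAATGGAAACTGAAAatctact
Oas3 (chr5:120777715-120777744, minus strand): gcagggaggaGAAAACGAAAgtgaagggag
Ifit1 (chr19:34640794-34640823, minus strand): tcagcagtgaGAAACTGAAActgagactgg
Ifit3 (chr19:34583397-34583426, minus strand): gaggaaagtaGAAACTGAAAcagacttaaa
Rsad2 (chr12:26456553-26456582, plus strand): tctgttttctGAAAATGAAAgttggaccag
Gbp2 (chr3:142620594-142620623, minus strand): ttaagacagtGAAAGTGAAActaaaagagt
Gbp3 (chr3:142559992-142560021, minus strand): gatctggGAAATAGAAACTGAAActgtgtc
Ddx58 (chr4:40239804-40239833, plus strand): ctggccatagGAAATCGAAActgcctcagg
Ifih1 (chr2:62646206-62646233, minus strand): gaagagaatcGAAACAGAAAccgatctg
Stat2 (chr10:128270266-128270295, minus strand): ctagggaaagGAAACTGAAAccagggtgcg
Trim30a (chr7:104465210-104465239, plus strand): caggaactgaGAAAAAGAAActaaagaact
B2m (chr2:122147538-122147567, plus strand): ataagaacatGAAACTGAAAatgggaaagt
In Isg15, Bst2, Gbp3 and Oas1a the capitals run over more than 10 bases because matches overlap, and Isg15 has the longest run, of 22 bases. The middle bases CT, a common form of the element, stand between 2 GAAA blocks in 7 of these sites, those of B2m, Bst2, Gbp3, Ifit1, Ifit3, Oas1a and Stat2. The matches of Ddx58 and Ifih1 lie after the start, in the transcribed part. The whole windows of Oas1a and Xaf1 are given because these are the only genes of the set whose WT and KO values did not overlap; capitals again mark the ISRE core.
Oas1a (chr5:120907476-120907775, minus strand): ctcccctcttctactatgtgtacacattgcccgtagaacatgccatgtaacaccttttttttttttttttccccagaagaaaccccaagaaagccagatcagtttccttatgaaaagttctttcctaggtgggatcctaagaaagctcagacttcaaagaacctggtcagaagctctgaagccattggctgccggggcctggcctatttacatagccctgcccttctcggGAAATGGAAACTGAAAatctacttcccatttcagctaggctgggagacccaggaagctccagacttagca
Xaf1 (chr11:72301379-72301678, plus strand): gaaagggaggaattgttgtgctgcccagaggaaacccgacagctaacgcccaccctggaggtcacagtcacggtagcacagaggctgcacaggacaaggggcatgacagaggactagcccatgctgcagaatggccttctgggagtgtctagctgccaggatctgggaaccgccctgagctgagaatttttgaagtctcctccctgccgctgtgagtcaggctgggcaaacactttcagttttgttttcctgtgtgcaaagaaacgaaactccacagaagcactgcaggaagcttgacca
The Oas1a window holds overlapping matches that begin at -20 and -14 from the start and a GAS match that begins at -98, whereas the Xaf1 window holds no match to either pattern.

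Levels between genes were compared as mean CPM per kb of the longest annotated transcript. B2m, the invariant chain of MHC class I, was highest at 2326 CPM per kb, followed by Psmb8 (126), Bst2 (89.9), Psmb9 (66.9) and Tap1 (65.5). Sp100 (37.0), Irf9 (35.1), Ifi35 (33.0), Rtp4 (30.1) and Isg15 (25.6) came next. The lowest were Parp14 (1.24), Oas2 (1.18), Mx2 (0.439) and Mx1 (0.337). All 4 antigen-presentation genes were thus among the top 5 of the order, and the antiviral genes Mx1, Mx2 and Oas2 lay at its bottom. The interferon ligands themselves were near or below the counting floor. Of 21 ligand genes in the table, 16 had 0 counts in every library, which allows up to 0.220 CPM in the shallowest library by counting error alone, and the summed counts of all 21 were 2, 1 and 1 in WT 1, 2 and 3 and 3, 13 and 1 in KO 1, 2 and 3. The highest single count, 10, was Ifng in KO 2.

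**Figure D1:**
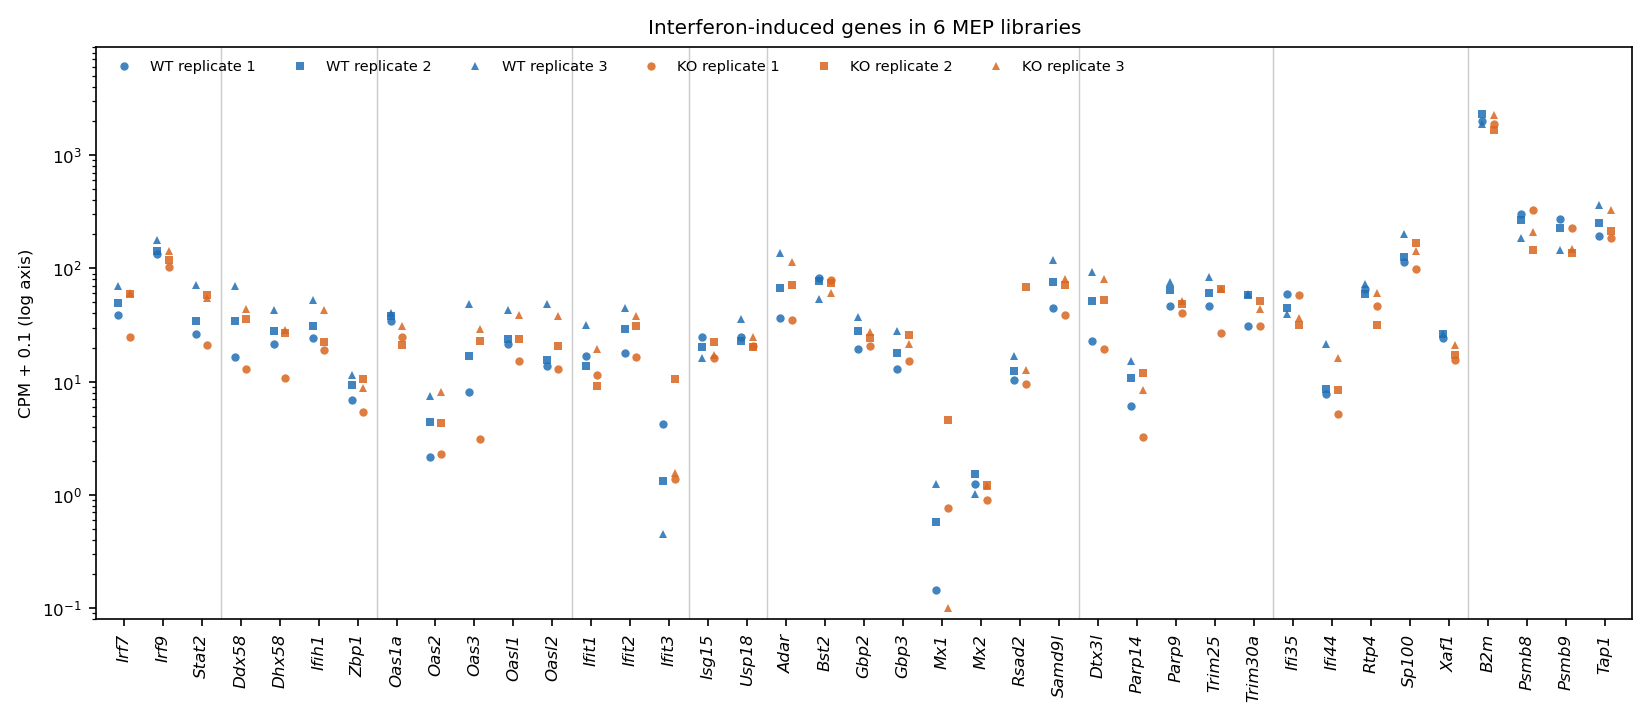
Level of each of the 39 genes in each library, on a log axis of CPM plus an offset of 0.1, ordered by role with vertical lines between roles; blue is WT, orange KO, and the marker shape gives the replicate number. Rsad2, Ifit3 and Mx1 have a KO replicate 2 point above all others, and for most genes the triangles (replicate 3) lie above the circles (replicate 1) in both genotypes.

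The comparison of KO with WT asked whether loss of Tmprss6 changed these transcripts in MEPs. In the fit of all 6 libraries 0 of 38 genes passed an adjusted p of 0.05 in edgeR, as did 0 of the 13453 genes tested (0%), the smallest adjusted p being 1.00. At an unadjusted p under 0.05 the fit had 0 of the 38 and 1.74% of all genes. DESeq2 called 0 of the 38 and 0.0446% of all genes. At an unadjusted p under 0.05 it also had 0 of the 38, against 2.57% of all genes. The fitted log2 fold changes ran from -0.63 (Ifit1) to 1.21 (Ifit3), and the standard errors of most were as large as the change or larger. In bulk RNA, fewer cells of a type and less RNA per cell cannot be told apart.

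Both genotypes carry the numbers 1, 2 and 3, and libraries of the same number deviated together from their group means, so KO was also compared with WT within numbers. The median difference of the 38 genes in log2 CPM was -0.31 for KO 1 minus WT 1, -0.056 for KO 2 minus WT 2 and -0.34 for KO 3 minus WT 3, against medians of -0.013, -0.0076 and -0.010 for all genes. KO was the lower library for 34, 22 and 30 of the 38 genes, against 51.7%, 50.4% and 51.0% of all genes. It was lower in 3 of 3 pairs for 15 of 38 genes, against 13.4% of all genes, and higher in 3 of 3 pairs for 0 of 38, against 11.4%. These 15 were Dhx58, Ifi35, Ifi44, Ifih1, Ifit1, Irf9, Oas1a, Oasl1, Parp9, Rtp4, Samd9l, Tap1, Trim30a, Usp18 and Xaf1. Some of their differences were near 0, as for Trim30a in number 1 (-0.0015 in log2 CPM) and Oasl1 in number 2 (-0.0060). The groups did not overlap for Oas1a and Xaf1, both lower in KO (2 of 38, against 1.76% of all genes), and for 0 of 38 higher in KO, against 2.27%.

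When the number was added to the fit as a block, 0 of 38 genes and 0% of all genes passed an adjusted p of 0.05 in edgeR. At an unadjusted p under 0.05 this fit had 6 genes lower in KO, against 1.36% of all genes: Ifit1, Irf9, Oas1a, Parp9, Rtp4 and Xaf1. DESeq2 with the block called 0 of the 38, against 0.178% of all genes. Because the libraries numbered 2 include the one high in markers of other blood cells, the block fit was repeated on pairs 1 and 3, which leaves 1 residual degree of freedom. These pairs also differed in such markers. B and plasma cell markers summed to 50.5 CPM in WT 3 and 716 CPM in KO 3. Past an adjusted p of 0.05, 6 eosinophil, basophil and mast cell and 2 neutrophil precursor markers were lower in KO. Jchain and 4 globin and late erythroblast markers were higher. Over pairs 1 and 3, 0 of 38 genes of the set passed, against 0.862% of all genes. Of their log2 fold changes 34 of 38 were below 0 against 51.5%, with a median of -0.32 against -0.010. At an unadjusted p under 0.05 this fit had 15 genes lower in KO, against 7.74% of all genes, and 0 higher, against 5.45%. The 3 smallest adjusted p were those of Oas3 (0.0528), Dhx58 (0.0750) and Trim25 (0.0846), each the lowest over the alternatives, whose highest was 1.00 for all 3. Without KO 2 alone, 35 of 38 were below 0 against 50.5%, and the median was -0.29.

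In the fit without the block, the median depended on 2 libraries. Without WT 3 it was 0.025, with 18 of 38 genes below 0, against 45.8% of all genes. Without KO 1 it was -0.048, with 22 of 39 below 0, against 48.0%. Leaving out WT 1, WT 2 or KO 3 gave -0.42, -0.23 and -0.45. WT 3 was the library in which most of these genes were highest and KO 1 the one in which most were lowest. Within numbers the median was below 0 in all 3 pairs, as given above, but pairs 1 and 3 each hold 1 of these 2 libraries. Pair 2 holds neither, and there 22 of 38 genes were below 0, against 50.4% of all genes, with a median of -0.056. Why the median moved was not tested.

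**Figure D2:**
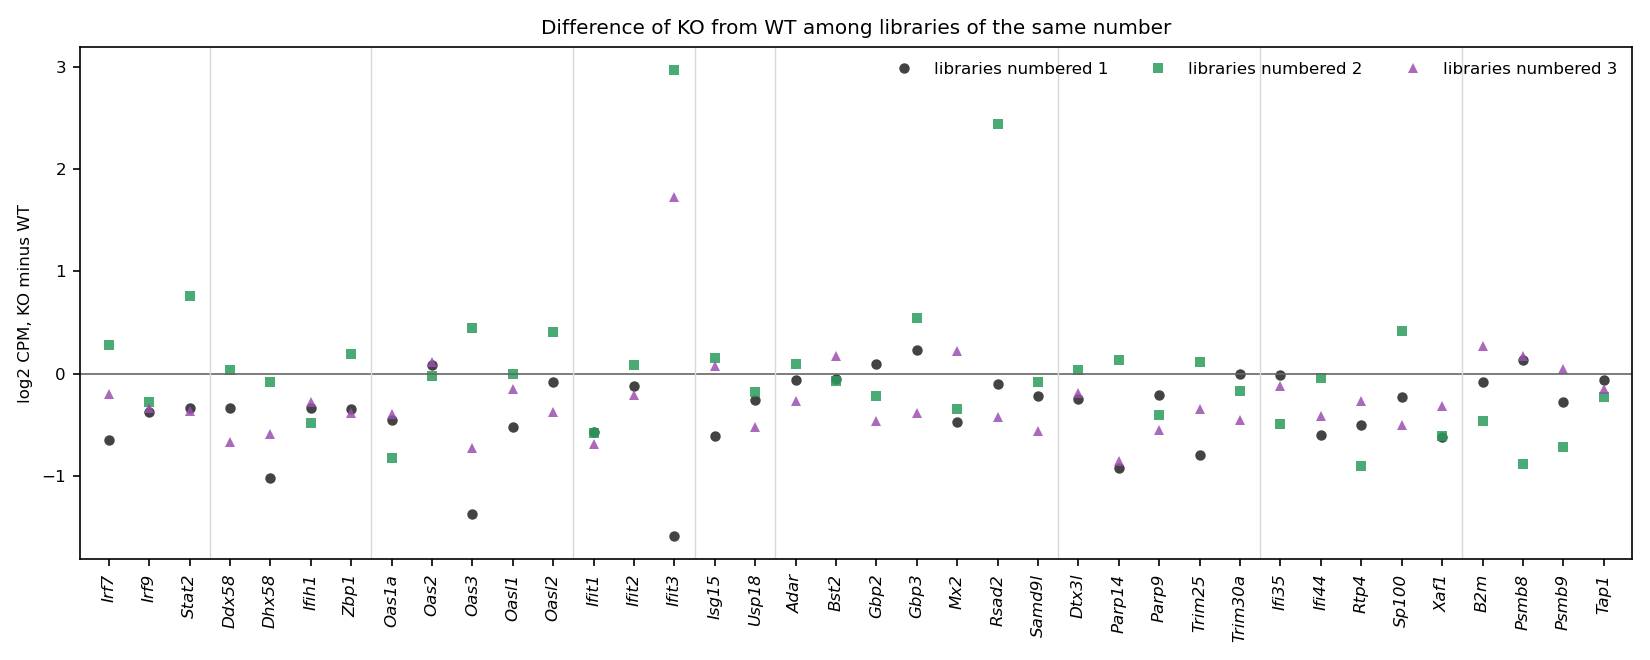
Difference in log2 CPM between KO and WT libraries of the same number for the 38 tested genes, ordered by role; a point below the line at 0 is lower in KO. Most circles (number 1) and triangles (number 3) lie below 0, while the squares (number 2) spread to both sides, with Rsad2 and Ifit3 far above.

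Levels are given from here on in the order of replicates 1, 2 and 3. Among the signal and transcription factors, Irf9 is the DNA-binding subunit of ISGF3. Irf9 (chromosome 14, 55603571 to 55610030, overlapped on the same strand by Rnf31) was at 133, 142 and 179 CPM in WT 1, 2 and 3 and 102, 117 and 142 CPM in KO 1, 2 and 3. Every KO library was below the WT library of its number, but the groups overlapped; the log2 fold change was -0.33 (SE 0.27, edgeR adjusted p = 1.00). Stat2, a subunit of the same complex that carries its activation domain, was at 26.4, 34.3 and 71.3 CPM in WT, against 20.9, 58.0 and 55.2 CPM in KO, lowest in KO 1 and highest in WT 3 as Irf9 was. KO 2 lay above WT 2, and the other 2 KO libraries below their WT partners. Irf7, which drives transcription of the interferon-alpha genes, was at 38.4, 49.1 and 69.2 CPM in WT, against 24.5, 59.6 and 60.5 CPM in KO, again with the lowest value in KO 1 and the highest in WT 3. The libraries numbered 1 were the lowest of their genotype for all 3 genes.

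The cytoplasmic sensors had a median log2 fold change of -0.37 over 4 genes in the fit of 6 libraries and -0.34 with the block. Ddx58 encodes RIG-I and was at 16.3, 34.5 and 69.3 CPM in WT, against 12.9, 35.4 and 43.5 CPM in KO. Ifih1, which encodes the long double-stranded RNA sensor MDA5, was at 24.2, 31.1 and 52.1 CPM in WT, against 19.1, 22.3 and 43.0 CPM in KO. Both were highest in WT 3 and lowest in KO 1, with overlapping groups, and Ifih1 was lower in KO within all 3 numbers. Dhx58, which encodes LGP2, a relative of both that lacks signalling domains, was at 21.5, 28.1 and 42.6 CPM in WT, against 10.6, 26.6 and 28.2 CPM in KO and was also lower in KO in 3 of 3 pairs, most in number 1 (-1.02 in log2 CPM) and least in number 2 (-0.080). Its log2 fold change was -0.49 (SE 0.45, edgeR adjusted p = 1.00) over 6 libraries and -0.81 (SE 0.20) over pairs 1 and 3. Zbp1, a sensor of Z-form nucleic acid that can start necroptosis, was at 6.72, 9.15 and 11.4 CPM in WT, against 5.25, 10.5 and 8.73 CPM in KO. Its KO values lay within or below the WT range, with KO 2 above WT 2.

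The enzymes of the OAS family make oligoadenylates that activate RNase L. Oas1a (chromosome 5, 120896256 to 120907521) was at 34.2, 37.6 and 40.3 CPM in WT 1, 2 and 3 and 24.9, 21.1 and 30.6 CPM in KO 1, 2 and 3. All 3 KO libraries were below all 3 WT libraries; the log2 fold change was -0.55 (SE 0.27, edgeR adjusted p = 1.00), and its closest relatives in the same cluster could share reads with it. Oas3 was at 7.96, 16.8 and 48.2 CPM in WT, against 2.99, 22.9 and 29.1 CPM in KO. It had the widest spread of the family, with KO 1 at 2.99 CPM and WT 3 at 48.2 CPM; within numbers KO minus WT in log2 CPM was -1.38, 0.45 and -0.72. Its log2 fold change was -0.40 (SE 0.87) over 6 libraries and -1.02 (SE 0.23) over pairs 1 and 3, with an edgeR adjusted p of 1.00 in the first and 0.0528 in the second (0.0528 to 1.00 over all alternatives). The OAS-like genes Oasl1 and Oasl2 were lowest in number 1 and highest in number 3 of both genotypes. Oasl1 was at 21.5, 23.7 and 42.8 CPM in WT, against 15.02, 23.6 and 38.6 CPM in KO. Oasl2 was at 13.7, 15.3 and 48.8 CPM in WT, against 12.9, 20.4 and 37.7 CPM in KO. The highest library was WT 3 and the next KO 3 for each. Oas2, at 2.07 to 7.92 CPM, was the one member of the family not lower in KO on average, at a log2 fold change of 0.072 (SE 0.65).

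The IFIT proteins bind foreign RNA, and their 3 genes lie together on chromosome 19. Ifit1 (chromosome 19, 34640871 to 34650009) was at 16.7, 13.7 and 31.4 CPM in WT 1, 2 and 3 and 11.2, 9.09 and 19.5 CPM in KO 1, 2 and 3. KO was lower within every number by nearly the same amount, -0.57, -0.58 and -0.68 in log2 CPM, but the groups overlapped, both libraries numbered 3 being high. The log2 fold change was -0.63, with an SE of 0.45 without the block and 0.21 with it (edgeR adjusted p = 1.00 and 0.995). Ifit2 was at 18.0, 29.2 and 44.2 CPM in WT, against 16.5, 30.9 and 38.1 CPM in KO. Its pairs differed little, and number 1 was lowest and number 3 highest in both genotypes. Ifit3 was at 4.10, 1.24 and 0.355 CPM in WT, against 1.28, 10.5 and 1.47 CPM in KO, and its nearest copy Ifit3b could share its reads. Only KO 2 reached 5 CPM; the log2 fold change was 1.21 (SE 1.08) with that library and -0.48 without it.

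Isg15, the ubiquitin-like protein attached to others by interferon-induced ligases, was at 24.4, 19.9 and 16.2 CPM in WT, against 16.0, 22.3 and 17.1 CPM in KO. The groups overlapped throughout. Usp18, the protease that removes it and that also dampens receptor signalling, was at 24.5, 22.8 and 35.5 CPM in WT, against 20.5, 20.2 and 24.7 CPM in KO. KO was the lower library in each number, and WT 3 stood above the other 5 libraries (log2 fold change -0.34, SE 0.30, edgeR adjusted p = 1.00).

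Among the direct antiviral effectors, Rsad2 encodes viperin, which makes a chain-terminating nucleotide. Rsad2 (chromosome 12, 26442746 to 26456452) was at 10.2, 12.4 and 16.8 CPM in WT 1, 2 and 3 and 9.53, 67.8 and 12.5 CPM in KO 1, 2 and 3. KO 2 was far above the other 5 libraries, which overlapped; the log2 fold change was 1.19 (SE 0.73, edgeR adjusted p = 1.00) with it and -0.25 (SE 0.37) without it. Mx1, a GTPase known to be defective in many laboratory strains, ran from 0 to 1.14 CPM in 5 libraries and was at 4.52 CPM in KO 2. Mx2, its paralog, ran from 0.794 to 1.44 CPM. Rsad2, Ifit3 and Mx1 were the only genes of the set with their highest value in KO 2, the library high in markers of other blood cells; whether such cells took part in these values was not tested. The set as a whole was not high there: the median difference of KO 2 from the mean of the other 5 libraries was 0.074 in log2 CPM, against 0.025 for all genes.

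Adar, the editor that converts adenosine to inosine in double-stranded RNA, was at 36.4, 66.4 and 136 CPM in WT, against 34.9, 71.0 and 113 CPM in KO. The libraries fell into 3 levels by number, with WT and KO close at each level. Samd9l, a restriction factor that also limits haematopoietic cell growth, was at 44.6, 75.6 and 119 CPM in WT, against 38.3, 71.6 and 80.6 CPM in KO, lower in KO within every number. Bst2, or tetherin, which holds budding virions at the membrane, was at 81.7, 77.8 and 54.0 CPM in WT, against 78.8, 74.0 and 60.8 CPM in KO and differed by a log2 fold change of 0.0027 (SE 0.28). Its libraries numbered 3 were the lowest of their genotype, the reverse of most genes here. The guanylate-binding proteins attack the vacuoles of intracellular pathogens. Gbp2 was at 19.2, 28.0 and 37.4 CPM in WT, against 20.5, 24.1 and 27.1 CPM in KO. Gbp3, its neighbour on chromosome 3, was at 12.8, 17.7 and 28.1 CPM in WT, against 15.1, 25.9 and 21.5 CPM in KO. For both, WT 1 was the lowest library and WT 3 the highest, the KO values lay between, and reads could be split between these paralogs.

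The ubiquitin ligases and ADP-ribosyltransferases were all below 0 in the fit of 6 libraries (5 of 5, median -0.26). Parp9 and Dtx3l encode partners in a complex and are divergent neighbours on chromosome 16 whose ends overlap, so unstranded reads there could be assigned to either. Parp9 was at 46.8, 63.9 and 75.9 CPM in WT, against 40.4, 48.2 and 51.8 CPM in KO. Dtx3l was at 22.97, 51.2 and 91.9 CPM in WT, against 19.4, 52.6 and 80.7 CPM in KO. KO was lower in 3 of 3 pairs for Parp9, whereas Dtx3l followed the number, with about the same level in WT 2 and KO 2. Parp14, a macrodomain protein next to them, was at 6.03, 10.7 and 15.1 CPM in WT, against 3.11, 11.8 and 8.29 CPM in KO, with KO 1 and KO 3 below their WT partners and KO 2 slightly above. Trim25, a ubiquitin ligase linked to RIG-I, was at 46.4, 60.9 and 83.4 CPM in WT, against 26.7, 65.9 and 65.9 CPM in KO. It was lowest in KO 1, and KO 2 and KO 3 were alike; the log2 fold change was -0.26 (SE 0.41) over 6 libraries and -0.56 (SE 0.15) over pairs 1 and 3. Trim30a, a ligase with several near-identical copies in the mouse, was at 30.9, 58.5 and 59.7 CPM in WT, against 30.9, 51.9 and 43.6 CPM in KO. Its libraries numbered 1 were the lowest and nearly equal.

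A mixed group of 5 induced genes was below 0 throughout (median -0.35), and 4 of them were lower in KO in 3 of 3 pairs. Xaf1 (chromosome 11, 72301629 to 72313733) was at 24.0, 26.0 and 26.1 CPM in WT 1, 2 and 3 and 15.6, 17.0 and 21.0 CPM in KO 1, 2 and 3. All WT values lay within a narrow band above all KO values; the log2 fold change was -0.51 (SE 0.28, edgeR adjusted p = 1.00), and with the block the unadjusted p was 0.0434 and the adjusted p 0.995 (0.333 to 1.00 over the alternatives). Rtp4, a chaperone of membrane receptors, was at 66.1, 59.1 and 72.4 CPM in WT, against 46.7, 31.6 and 60.2 CPM in KO. Each KO library was below its WT partner, most in number 2 (-0.90 in log2 CPM), and only KO 3 reached the WT range. Its log2 fold change was -0.51 (SE 0.31, edgeR adjusted p = 1.00). Ifi35 was at 58.8, 44.8 and 39.7 CPM in WT, against 58.3, 31.8 and 36.5 CPM in KO. Ifi44 was at 7.73, 8.60 and 21.6 CPM in WT, against 5.07, 8.35 and 16.2 CPM in KO. KO was lower in 3 of 3 pairs for both, but the smallest differences were -0.011 in log2 CPM for Ifi35 (number 1) and -0.041 for Ifi44 (number 2). Sp100, a component of nuclear bodies, was at 114, 126 and 199.99 CPM in WT, against 97.8, 167 and 141 CPM in KO, with KO 2 above WT 2 and the other pairs the other way.

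The 4 antigen-processing genes, all among the top 5 by level per kb, were below 0 in the fit of 6 libraries (4 of 4, median -0.14). Over pairs 1 and 3, 2 of 4 were below 0 (median -0.0070). B2m, overlapped on the opposite strand by Patl2, was at 1982, 2313 and 1884 CPM in WT, against 1879, 1676 and 2267 CPM in KO. The groups overlapped, and the log2 fold change of -0.085 (SE 0.29) became 0.093 over pairs 1 and 3. Psmb8 and Psmb9 encode catalytic subunits of the immunoproteasome and Tap1 a subunit of the peptide transporter, and the 3 genes adjoin on chromosome 17. Psmb8 was at 300.5, 268 and 184 CPM in WT, against 329.7, 146 and 208 CPM in KO. Psmb9, which overlaps Tap1 on the opposite strand, was at 275, 226 and 145 CPM in WT, against 226, 138 and 149 CPM in KO. Tap1 was at 193, 252 and 364 CPM in WT, against 185, 215 and 328 CPM in KO. KO 2 was the lowest library for B2m, Psmb8 and Psmb9, and the libraries numbered 3 were low for both proteasome genes but high for Tap1.

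The genes also differed along the replicate numbers. WT 3 was highest for 28 of 39 genes, whereas it was highest for 21.2% of all tested genes, and KO 1 was lowest for 25 of 39, against 23.7%. The median deviation of the 38 genes from their 6-library mean was -0.28, 0.11 and 0.55 in log2 CPM in WT 1, 2 and 3 and -0.52, 0.062 and 0.15 in KO 1, 2 and 3. Number 3 was above number 1 in both genotypes for 30 of 38 genes, against 41.5% of all genes, and below it in both for 4 of 38 (Bst2, Ifi35, Psmb8 and Psmb9), against 42.8%. The median difference of number 3 from number 1 was 0.88 in WT and 0.62 in KO, against -0.021 and -0.021 for all genes, which exceeds each median difference between genotypes above. Between the libraries numbered 1 and 2, all male, the median difference of number 2 from number 1 was 0.33 in WT and 0.68 in KO, with 29 of 38 genes above 0 in each, against 0.00084 and 0.11 for all genes.

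**Figure D3:**
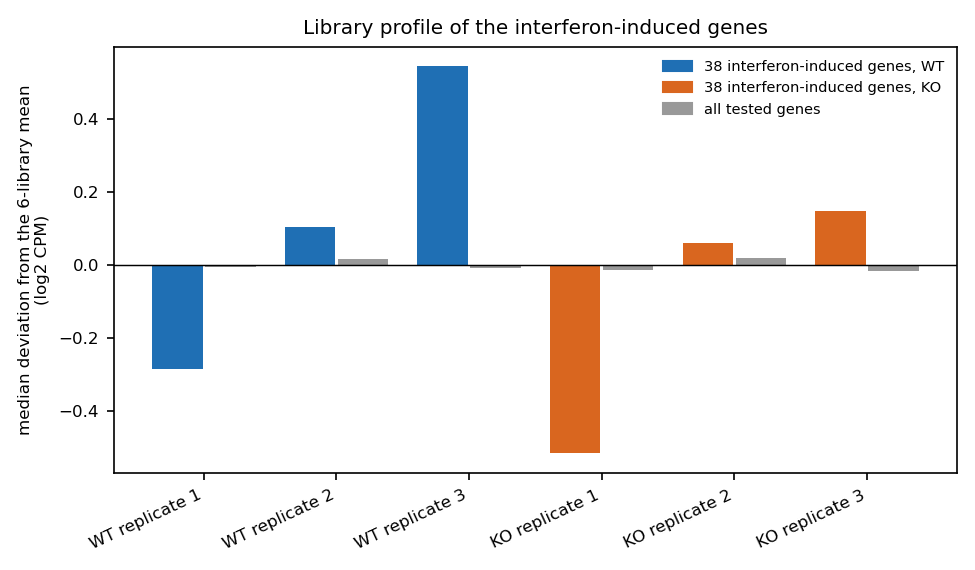
Median deviation of log2 CPM from the 6-library mean in each library, for the 38 tested interferon-induced genes (blue WT, orange KO) and for all tested genes (grey). The set runs from -0.52 in KO replicate 1 to 0.55 in WT replicate 3, while the median of all genes stays within 0.021 of 0.

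Transcript length moved with this axis in all genes. Over 13443 genes with a length, the difference of number 3 from number 1 had a Spearman correlation with the length of the longest transcript of 0.57 in WT and 0.56 in KO, and over the 38 genes 0.72 and 0.72. These are across genes of the same libraries and describe them only. The 30 genes above in number 3 had a median length of 3.81 kb and the 4 below 1.63 kb, against 3.04 kb for all genes. Set against the median of genes in the same of 10 length classes, 34 of 38 genes were above it for WT 3 minus WT 1 and 35 of 38 for KO 3 minus KO 1, with median excesses of 0.69 and 0.70 in log2 CPM. The excess over genes of like length was thus of about the same size in both genotypes. For KO against WT over pairs 1 and 3, 36 of 38 genes were below the median of their class, all but Oas2 and Psmb8, with a median of -0.27, and over 6 libraries 32 of 38 were below, with a median of -0.23. By length, the median log2 fold change over pairs 1 and 3 was -0.12 for 9 genes up to 2 kb, -0.33 for 19 of 2 to 4 kb and -0.38 for 10 above 4 kb, against 0.077, 0.0057 and -0.13 for all genes of those lengths. The part of length in the values of single genes was not tested.

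**Figure D4:**
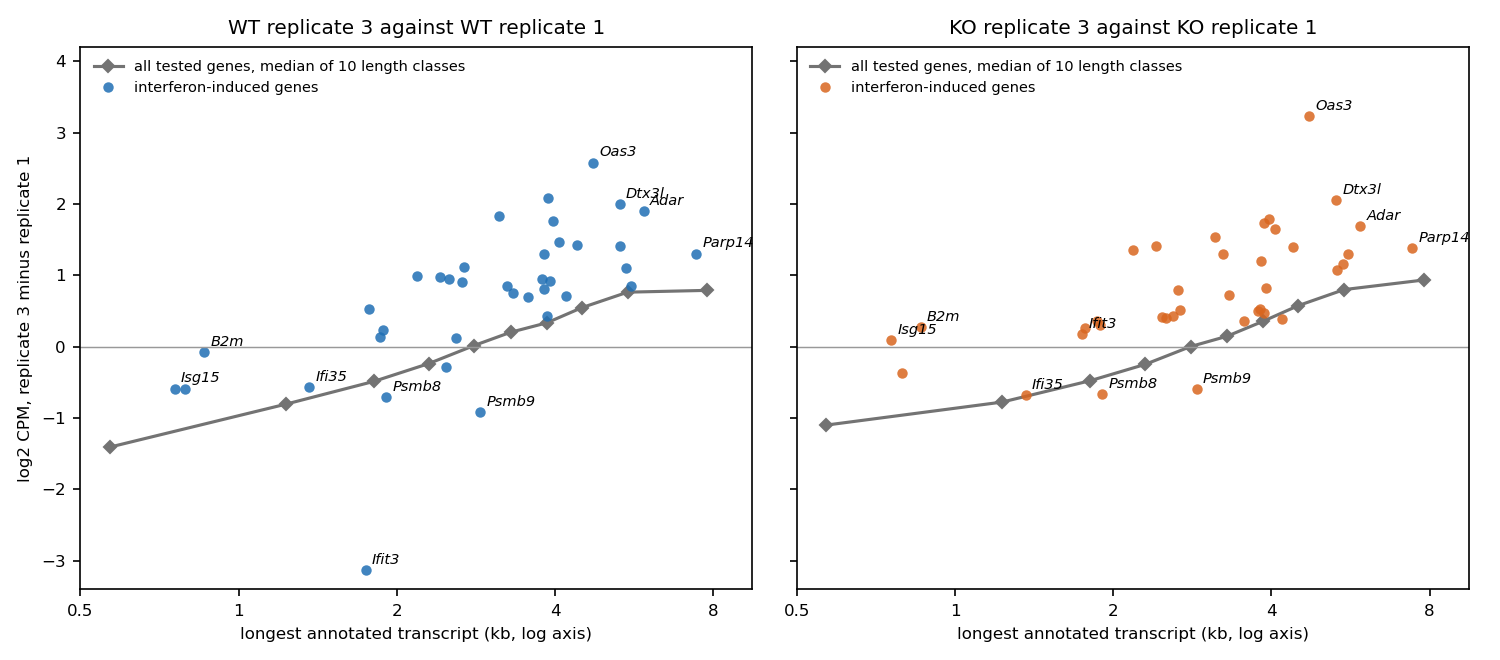
Difference in log2 CPM between replicate 3 and replicate 1 of a genotype against the longest annotated transcript (kb, log axis) for the 38 tested genes (points) and the median of all tested genes in 10 length classes (grey line). The grey line climbs with length in both genotypes, and 34 of 38 points in WT and 35 of 38 in KO lie above the median of their length class.

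Other genes of the pathway were grouped into 7 lists. The counts that follow are of genes past an adjusted p of 0.05 in edgeR, and in the fit of 6 libraries they were 0 in each list, the ligands having none to test. Of the interferon receptors and their proximal signalling, 16 of 17 genes were tested, with a median log2 fold change of 0.037. Ifnar1 and Ifnar2, the chains of the type I receptor, had 0.046 (SE 0.33) and 0.12 (SE 0.32). The feedback inhibitors Socs1 and Socs3 had the smallest p with 1.16 (SE 0.52) and 1.69 (SE 0.64). Socs3 was at 1.75, 0.963 and 0.497 CPM in WT, against 3.48, 5.01 and 1.98 CPM in KO, every KO library above every WT library at these low levels.

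Of 9 genes of IRF factors outside the set, 8 were tested (median 0.077). Irf8, a factor of monocytes and dendritic cells, was at 37.1, 29.5 and 12.0 CPM in WT, against 45.9, 316 and 17.1 CPM in KO. Its value in KO 2 was far above the others, and its log2 fold change of 2.27 (SE 1.00) became 0.26 without that library. Irf1, a factor of the interferon-gamma response, was at 53.9, 59.6 and 33.9 CPM in WT, against 34.1, 83.0 and 29.0 CPM in KO. It too was highest in KO 2, and its log2 fold change was -0.0095 with and -0.64 without it. Among the sensing adaptors and kinases, 17 of 21 present were tested (median 0.027), and the one of smallest p, Unc93b1, was at 271 CPM in KO 2 and at 24.9 to 41.9 CPM elsewhere.

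Of 70 other interferon-induced genes 64 were tested. Beside the 32 of 38 given above, 33 of these 64 were below 0, with a median of -0.011. Over pairs 1 and 3 they were 44 of 63, with a median of -0.16. KO 2 was the highest library for 30 of the 70, against 3 of 39 in the set and 22.7% of all tested genes. Apobec3, a cytidine deaminase that restricts retroviruses, lies on chromosome 15 at 79891659 to 79915906, near Tmprss6 at 78439668 to 78468634. Whether this nearness to the deleted gene bears on its values was not tested, and the strain of the mice is not stated. Apobec3 was at 175, 179.9 and 168 CPM in WT, against 54.2, 69.5 and 77.5 CPM in KO. All 3 KO libraries were below all 3 WT libraries. With 6 libraries its edgeR adjusted p was 1.00, while DESeq2 called it lower there (adjusted p = 0.00778) and with the block (adjusted p = 4.0e-09). In edgeR it was the 1 gene of this list past the threshold over pairs 1 and 3, lower in KO by 1.41 on the log2 scale (SE 0.14, edgeR adjusted p = 6.1e-05, 4.0e-09 to 1.00 over the alternatives). Of 19 genes of MHC class I and its processing, all tested, 12 were below 0 (median -0.095). Nlrc5, the transactivator of MHC class I genes, fell over pairs 1 and 3 by 1.09 on the log2 scale (SE 0.23, edgeR adjusted p = 0.0352, 0.0352 to 1.00 over the alternatives). It was at 44.6, 46.6 and 72.3 CPM in WT, against 13.1, 54.2 and 52.1 CPM in KO, so that the lowest value was again KO 1, and KO 2 was above WT 2. The 7 MHC class II genes, products of antigen-presenting cells, had a median of 1.55 and 6 of them were highest in KO 2, and over pairs 1 and 3 the median was 0.23. Their values stood beside the macrophage and dendritic markers of that library; whether such cells took part was not tested.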

How the data were processed

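Read counts per Ensembl gene for 6 MEP libraries were used as deposited: whole numbers, unscaled. Per the labels' protocols, the SMART-Seq v4 kit served for amplification and Nextera XT, which keeps no strand, for the libraries. STAR 2.5.3a, FastQC 0.11.5 and edgeR are the tools, and GRCm38.p3 and GRCh38.p3 the builds, in the submitters' processing notes. Which program counted reads, with what strand setting and annotation release, is not given in the sources used here. Gene coordinates are those of the deposited table. Reads of paralogs, overlapping genes and antisense genes can therefore be misassigned; Irf7, Adar and Rtp4 overlap Phrf1, Chrnb2 and Masp1 on the opposite strand.

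Genes passing filterByExpr (minimum count 10, minimum total 15) were compared with edgeR 4.0.16 (TMM, glmQLFit and glmQLFTest, two-sided, Benjamini-Hochberg over all tested genes, threshold 0.05) in R 4.3.3. Log2 CPM per library add a prior count of 2, and the SE of a log2 fold change is the one implied by the quasi-likelihood F statistic. Counting floors cover counting error only. DESeq2 1.42.0, other scalings and filters, the replicate block, pairs 1 and 3 and leaving out each library were alternatives. No gene row was without a name.

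The numbers pair the libraries by the data and not by the labels: deviations from the group means correlated across genes at 0.53, 0.16 and 0.63 for numbers 1, 2 and 3, each over 0.1. The log2 CPM themselves do not show it for number 2: the correlation of WT 2 was 0.918 with KO 2, 0.958 with KO 1 and 0.954 with KO 3. The libraries are separate pools per the labels, and p-values measure the spread between them.

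The rule for the 39 genes used no values, but the genes, lists and tests were chosen with earlier results of these data known. Values in every library are printed for genes at a mean of 5 CPM or more (35 of 39). Lengths are those of the longest GENCODE transcript. Of each pathway list, up to 4 genes of smallest p were eligible for naming, with Irf1, Irf8, Ifnar1 and Ifnar2, and not every one is reported here.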

Additional observations from a re-analysis of the deposited data

How the results depend on the processing

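Among 12 alternatives, 0 of the 39 interferon-induced genes passed the threshold under any, and the count of called members was 0 in each. Over all genes edgeR called 0 with 6 libraries, also under leaving out each library; DESeq2 called 6 and DESeq2 with the replicate block 24, and pairs 1 and 3 with the block gave 117. In the pathway lists these last 3 fits called 1, 1 and 2 genes (Apobec3 in each, and Nlrc5 over pairs 1 and 3), against 0 otherwise. The median log2 fold change of the members was -0.21 with all 6 libraries and ran from -0.45 (without KO 3) to 0.025 (without WT 3) when a library was left out. With the replicate block it was again -0.21, and the block moved no member past the threshold. In edgeR, 6 of 38 members had an unadjusted p under 0.05 with the block, where 3.54% of all genes did. Without the block they were 0 of 38, where 1.74% of all genes did. Of 456 values of single members compared, 51 had the opposite sign to the fit of 6 libraries, and 13 of 38 members kept their sign under all 12 alternatives. Over pairs 1 and 3 the sign turned for B2m (0.093), Gbp3 (-0.083), Ifit3 (-0.12), Psmb8 (0.15), Rsad2 (-0.27) and Stat2 (-0.36), and without a filter on low counts for Bst2 (-0.0084). Leaving out 1 library turned it for 25 members. Their log2 fold changes then ran over -0.60 to 0.51 (Adar), -0.22 to 0.012 (B2m), -0.16 to 0.11 (Bst2), -0.77 to 0.27 (Ddx58), -0.63 to 0.46 (Dtx3l), -0.45 to 0.022 (Gbp2), -0.14 to 0.45 (Gbp3), -0.92 to 0.28 (Ifi44) and -0.80 to 0.029 (Ifih1). For the next genes in alphabetical order the ranges were -0.37 to 0.28 (Ifit2), -0.48 to 2.46 (Ifit3), -0.32 to 0.20 (Irf7), -0.29 to 0.026 (Isg15), -0.51 to 0.60 (Oas2), -0.91 to 0.57 (Oas3), -0.61 to 0.19 (Oasl1), -0.65 to 0.71 (Oasl2) and -0.51 to 0.097 (Psmb8). The remaining ranges were -0.25 to 1.61 (Rsad2), -0.62 to 0.082 (Samd9l), -0.30 to 0.18 (Sp100), -0.25 to 0.56 (Stat2), -0.43 to 0.13 (Tap1), -0.46 to 0.046 (Trim25) and -0.38 to 0.071 (Zbp1). The cause of these turns was not tested. Depth limits Mx1, Mx2, Ifit3 and Oas2, whose counts were the lowest of the set.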
